A study of Mus musculus with 18 samples.

Results

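C/EBPβ binding was compared between 24 and 48 hr post-induction (hpi) in C10 cells, over the 17673 windows of 200 bp (bins) that held 6 or more reads in at least 1 of both ChIP-seq libraries. These were 0.143% of the 12361722 bins of chromosomes 1 to 19 (mm9). C10 is a single line derived from HAFTL pre-B cells, and it expresses C/EBPα fused to the hormone-binding part of the estrogen receptor (C/EBPαER) together with GFP. Both libraries came from cells given 100 nM β-estradiol (β-Est), as the labels state it, with IL-3 and CSF-1 at 10 nM, for 24 or 48 hr. The study's methods give another concentration of β-Est, and the libraries were told apart by factor and time only. Chromatin was precipitated with the C/EBPβ antibody sc-150. The transgene was present in every cell compared here, the 0 hpi libraries included, and these controls received ethanol in place of the hormone.

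Each factor was assayed once at each time, and 18 libraries were used (C/EBPα 8, C/EBPβ 5 and PU.1 5). Without replicate libraries no test between time points was possible, and no p-value is given. Intervals are 95% intervals (exact Poisson for reads, exact Clopper-Pearson for shares, exact conditional for ratios of reads). Those of reads and ratios cover counting error only. Those of shares treat each bin as a separate draw, although neighbouring bins can belong to 1 site (up to 35 bins), so they can be too narrow. The 24 hpi library held 3040876 reads at different positions and the 48 hpi library 4945144, of which 3040876 were drawn at random so that both had equal depth, or 0.246 reads per bin on average. The other 1904268 reads of the 48 hpi library were set aside. Where other libraries are shown, reads were scaled to 10000000 per library and are called normalised reads. A bin was called higher at 48 hpi where (reads at 48 hpi + 1)/(reads at 24 hpi + 1) was at least 4, and higher at 24 hpi for the inverse. Neighbouring bins with at most 1 bin between them were joined into 12210 sites, of which 67.1% were 1 bin long.

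C/EBPβ is a leucine zipper transcription factor of the C/EBP family and binds DNA as a dimer, mostly to a pair of inverted TTGC half-sites. It pairs with C/EBPα and also with other zipper proteins such as ATF4, with which it uses a composite of a C/EBP and a CRE half-site. In the myeloid lineage it takes part in inflammatory and macrophage gene expression, along with PU.1, an ETS factor, and AP-1, the dimers of Jun and Fos. Ebf1 and E2A are transcription factors of the B lineage.

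The DNA under the calls is shown first for those of the 12 strongest sites called higher at 48 hpi that hold a C/EBP, composite or AP-1 sequence. The letters are the plus strand of mm9 (NCBIM37). Capitals mark TTGCNNAA (the C/EBP consensus), TGATGCAA (the C/EBP and CRE composite), TGAGTCA (AP-1) or TCCCNNGGG (EBF1), on either strand. Each site is named by the protein-coding gene with the nearest transcription start site (TSS). The sites shown first were picked for these sequences and do not stand for the class. Of all bins higher at 48 hpi, 27.7% held the C/EBP consensus, 13.3% AP-1 and 6.30% the composite. Over the compared bins these shares were 32.5%, 9.33% and 4.65%.
St3gal1, chr15:67104001-67104200: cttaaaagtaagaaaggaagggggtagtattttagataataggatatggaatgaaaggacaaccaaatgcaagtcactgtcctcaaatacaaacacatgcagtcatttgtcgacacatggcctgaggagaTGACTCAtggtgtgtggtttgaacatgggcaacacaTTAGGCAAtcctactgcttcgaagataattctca
Slc7a5, chr8:124422401-124422600: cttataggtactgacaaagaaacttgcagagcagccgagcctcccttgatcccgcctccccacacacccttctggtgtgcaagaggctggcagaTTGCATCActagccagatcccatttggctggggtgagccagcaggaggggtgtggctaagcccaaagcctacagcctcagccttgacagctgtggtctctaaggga
Nmbr, chr10:15026001-15026200: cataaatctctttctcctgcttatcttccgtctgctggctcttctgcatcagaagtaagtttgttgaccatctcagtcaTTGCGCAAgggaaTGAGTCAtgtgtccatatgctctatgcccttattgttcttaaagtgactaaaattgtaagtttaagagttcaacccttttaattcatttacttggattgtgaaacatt
Ccnl1, chr3:65695601-65695800: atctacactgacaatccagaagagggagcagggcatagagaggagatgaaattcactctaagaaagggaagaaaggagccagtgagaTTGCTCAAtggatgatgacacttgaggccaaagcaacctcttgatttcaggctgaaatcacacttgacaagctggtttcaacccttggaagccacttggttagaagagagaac
Mcph1, chr8:18619201-18619400: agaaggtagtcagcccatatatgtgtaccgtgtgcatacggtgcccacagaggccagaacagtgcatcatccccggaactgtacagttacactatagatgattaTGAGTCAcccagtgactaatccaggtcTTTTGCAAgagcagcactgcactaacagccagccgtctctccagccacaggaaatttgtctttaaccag
Ptgs2, chr1:151992201-151992400: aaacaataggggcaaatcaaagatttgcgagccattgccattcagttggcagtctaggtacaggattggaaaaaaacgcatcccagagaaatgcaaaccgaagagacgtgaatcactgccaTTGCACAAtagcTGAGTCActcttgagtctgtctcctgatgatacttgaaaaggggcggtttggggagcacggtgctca
Diras2, chr13:52577201-52577400: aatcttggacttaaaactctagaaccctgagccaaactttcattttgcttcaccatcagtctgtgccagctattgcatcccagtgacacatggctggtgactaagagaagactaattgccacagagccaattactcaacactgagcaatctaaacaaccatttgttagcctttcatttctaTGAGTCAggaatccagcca
Bcl2l11, chr2:127949801-127950000: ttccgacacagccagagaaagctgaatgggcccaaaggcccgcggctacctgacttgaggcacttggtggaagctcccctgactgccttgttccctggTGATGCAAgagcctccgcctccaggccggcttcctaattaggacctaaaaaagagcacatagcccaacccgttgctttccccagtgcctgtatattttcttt
Bcl3, chr7:20416201-20416400: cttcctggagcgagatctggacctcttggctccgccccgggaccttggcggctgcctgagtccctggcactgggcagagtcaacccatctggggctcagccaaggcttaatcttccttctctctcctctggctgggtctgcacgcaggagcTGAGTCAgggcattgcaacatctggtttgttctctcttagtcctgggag
Of the sites called higher at 24 hpi, 3 of the 8 strongest held the EBF1 sequence. Only these 3 are shown, and they do not stand for the class. The sequence was in 8.55% of all bins higher at 24 hpi (20 of 234), 3.97% of the compared bins and 1.87% of the bins of the genome.
Stk35, chr2:129677401-129677600: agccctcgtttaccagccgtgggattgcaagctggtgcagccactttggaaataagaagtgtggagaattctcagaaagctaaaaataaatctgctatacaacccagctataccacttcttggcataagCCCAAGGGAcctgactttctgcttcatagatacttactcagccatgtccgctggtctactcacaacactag
Ssh2, chr11:77028401-77028600: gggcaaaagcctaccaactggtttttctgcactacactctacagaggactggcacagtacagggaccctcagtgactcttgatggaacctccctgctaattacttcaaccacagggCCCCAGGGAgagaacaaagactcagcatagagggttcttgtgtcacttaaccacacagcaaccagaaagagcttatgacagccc
Ceacam9, chr7:17315201-17315400: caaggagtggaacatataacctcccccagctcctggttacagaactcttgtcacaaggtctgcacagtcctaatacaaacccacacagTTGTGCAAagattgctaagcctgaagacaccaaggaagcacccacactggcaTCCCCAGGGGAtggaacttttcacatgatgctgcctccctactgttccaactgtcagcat
The last set consists of 2 strong sites whose reads at both times lay within counting error of each other and 2 sites of lineage genes, all with a C/EBP consensus, which at Kcne3, Cdkl4 and Pax5 is the palindrome TTGCGCAA.
Kcne3, chr7:107331001-107331200: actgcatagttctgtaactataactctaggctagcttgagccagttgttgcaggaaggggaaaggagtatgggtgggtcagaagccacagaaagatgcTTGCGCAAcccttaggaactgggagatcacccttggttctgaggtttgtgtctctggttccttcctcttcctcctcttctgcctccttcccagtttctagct
Cdkl4, chr17:80960201-80960400: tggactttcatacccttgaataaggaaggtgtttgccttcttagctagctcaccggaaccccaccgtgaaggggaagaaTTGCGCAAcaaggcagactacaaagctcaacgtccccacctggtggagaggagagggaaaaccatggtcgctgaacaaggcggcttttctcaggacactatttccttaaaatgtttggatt
Sfpi1, chr2:90938401-90938600: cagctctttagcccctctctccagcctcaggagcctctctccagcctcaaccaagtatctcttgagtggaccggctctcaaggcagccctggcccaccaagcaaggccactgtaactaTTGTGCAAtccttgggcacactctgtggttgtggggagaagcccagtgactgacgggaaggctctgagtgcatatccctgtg
Pax5, chr4:44658201-44658400: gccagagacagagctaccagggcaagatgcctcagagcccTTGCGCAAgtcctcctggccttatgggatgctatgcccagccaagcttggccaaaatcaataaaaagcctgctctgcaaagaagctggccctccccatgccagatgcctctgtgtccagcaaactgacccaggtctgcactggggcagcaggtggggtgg

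C/EBPβ reads were more abundant at 48 hpi in most bins. At equal depth, 13245 of the 17673 bins (74.9%) held more reads at 48 hpi, 3751 held more at 24 hpi and 677 held equal numbers. The median log2 ratio was 0.68, with 5% of bins below -1.17 and 5% above 2.22. The bins took 4.31% of all reads at 24 hpi and 6.55% at 48 hpi, and their summed reads were 1.52-fold higher at 48 hpi (interval 1.51 to 1.53). These reads also chose the bins. The 48 hpi reads set aside gave 10.3 reads per bin at the same depth against 7.42 at 24 hpi, a ratio of 1.39, in which the 24 hpi reads had still taken part in the choice. In bins with fewer than 3 reads in each library, taken as background, the ratio was 0.967. Of the 9736 bins with 6 or more reads at 24 hpi, 76.5% also reached 6 reads at 48 hpi, while 48.4% of the 15388 such bins at 48 hpi reached it at 24 hpi. How far the higher share of reads at 48 hpi came from binding and how far from the yield of the precipitation was not tested.

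**Figure D1:**
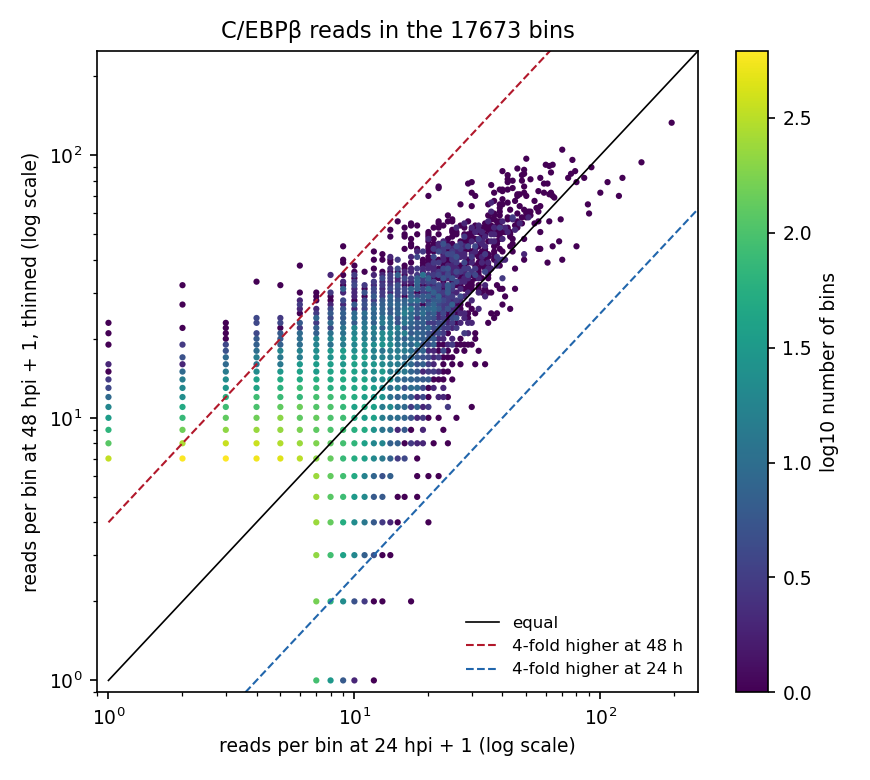
C/EBPβ reads per 200-bp bin at 24 hpi (x axis) and 48 hpi (y axis), each plus 1, on log scales, for the 17673 bins at equal depth; the colour gives the log10 number of bins at a point and the dashed lines mark 4-fold. Most of the cloud lies above the line of equal reads (74.9% of bins), and the calls in both directions sit at low counts, up to 44 reads for those higher at 48 hpi and up to 19 for those higher at 24 hpi.

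The call of 4-fold was passed by 1477 bins (8.36%) as higher at 48 hpi, at 1060 sites, and by 234 bins (1.32%) as higher at 24 hpi, at 171 sites. The remaining 15962 bins passed neither call. Among bins higher at 48 hpi, 595 had no read at 24 hpi and 626 had 1, and 425 had 10 or more reads at 48 hpi. Among bins higher at 24 hpi, 131 had no read at 48 hpi and 95 had 1, and only 15 had 10 or more reads at 24 hpi. Most calls thus rest on few reads. The count higher at 48 hpi was 746 when the whole 48 hpi library was used and scaled by its size. With 0.5 added in place of 1 read, 2188 bins were higher at 48 hpi and 403 higher at 24 hpi. In bins of 400 bp these counts were 1894 and 652. With a call of 2-fold, 6434 and 1124 bins passed.

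The reads set aside show how far the calls rest on the random draw from the 48 hpi library. In bins higher at 48 hpi the mean was 0.889 reads at 24 hpi and 9.18 at 48 hpi, and 5.70 in the reads set aside, scaled to the same depth. In bins higher at 24 hpi the means were 7.11 and 0.479 reads, against 2.55 in the reads set aside. The reads at 48 hpi that chose the bins were thus more extreme than those set aside in both classes. The reads at 24 hpi also chose the bins and were used in full, with none left to measure them again, so these values do not test the direction of the calls. In bins that passed neither call the 3 values were 8.03, 11.6 and 10.9 reads.

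The calls were rarer in bins with more reads. Bins with 6 to 9 reads in both libraries together numbered 3995, of which 24.5% were called higher at 48 hpi and 5.36% higher at 24 hpi. At 10 to 19 reads these shares were 4.73% and 0.219% of 8692 bins, and at 20 to 39 reads 2.33% and 0.0284% of 3522. At 40 to 79 reads, 6 of 1248 bins were called higher at 48 hpi, and none of the 216 bins with 80 or more reads passed either call. With 6 to 9 reads in total a bin is compared only if 1 library alone holds 6 or more, which itself widens the ratio, so the share of calls and the ratio of 2.07 (2.03 to 2.12) in this class are not comparable with the others. From 10 reads on, the summed ratio of 48 over 24 hpi was 1.47, 1.5, 1.5 and 1.32 (1.28 to 1.35), and 70.3%, 78.3%, 88.5% and 87.0% of bins held more reads at 48 hpi. The class of 80 or more reads includes bins nearest Gm5614 (194 and 132 reads), Gm10801 (99 and 71) and Gm10722 (85 and 81). These were high in every library and hold none of the C/EBP sequences, as described below. Their part in the lower ratio of this class was not tested. The share of bins with the C/EBP consensus was 23.4% in the class of fewest reads and 70.8% in the class of most. Just outside the threshold, the 8081 bins whose higher count was 5 held 2.94 and 3.97 reads on average, and 19.9% had the consensus. Just inside, the 4242 bins with 6 held 3.57 and 5.15 reads, and 24.2% had it.

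The 12 strongest sites higher at 48 hpi lay near genes of varied function, mostly far from a TSS. The strongest was an intergenic bin 158179 bp upstream of St3gal1, a sialyltransferase gene, with 8 reads (3.45 to 15.8) at 24 hpi and 44 (32.0 to 59.1) at 48 hpi. In an intron of Slc7a5, which encodes an amino acid transporter, 8 and 38 reads were counted. Near Nmbr, a receptor gene, a bin 546074 bp from the TSS went from 5 reads to 37, and its sequence above has the palindrome and an AP-1 sequence close by. The sites were chosen on these counts, so the gap between the times is part of the choice.

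Among the other sites, Ptgs2, which encodes the prostaglandin synthase COX-2, had 4 and 31 reads in a bin 45047 bp downstream of its TSS. Bcl2l11, the gene of the pro-apoptotic protein Bim, had 5 and 29 reads at 1873 bp upstream of the TSS, over a composite sequence. Bcl3, which encodes a nuclear cofactor of NF-κB, had 6 and 29 reads at 8182 bp upstream. Notch1, a receptor gene of cell fate decisions, had 6 and 27 reads at 18118 bp upstream. The ratio at these 4 sites was 7.75 (2.74 to 30.2), 5.8 (2.22 to 19.2), 4.83 (1.97 to 14.2) and 4.5 (1.82 to 13.3), in the same order.

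The remaining sites were Ccnl1 (a cyclin gene) and Mcph1 (microcephalin) with 7 and 34 reads each, Sipa1l2 with 3 and 32, Diras2 with 1 and 31, and BC005537 with 6 and 28. When the whole 48 hpi library was used and scaled to the depth of 24 hpi, 3 of the 12 sites no longer passed the call. These were BC005537 with 18.4 reads at 48 hpi and a fold of 2.78 (1 read added to each), Notch1 with 22.8 and 3.39, and Mcph1 with 29.5 and 3.81. At BC005537 only 2 reads had been set aside and at Sipa1l2 4, so their counts after thinning were high by the draw. The site of BC005537 differed from the others in its PU.1 signal, with 71.2 normalised PU.1 reads at 0 hpi and 114 at 48 hpi. At the other 11 sites PU.1 at 48 hpi lay between 0 and 26.5 normalised reads. C/EBPα, which the choice of these sites did not use, had more normalised reads at 48 than at 24 hpi at 8 of the 12, where 53.7% of the bins higher at 48 hpi and 45.1% of all compared bins did among those with unequal C/EBPα reads. St3gal1 had 12.2 and 32.2 normalised C/EBPα reads, Slc7a5 13.5 and 37.4, and Diras2 6.75 and 19.3. Nmbr, also counted among the 8, had 0 and 1 C/EBPα reads before scaling.

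Sites higher at 24 hpi were weaker. Socs3, which encodes a feedback inhibitor of cytokine signalling, had 19 reads (11.4 to 29.7) at 24 hpi and 3 (0.619 to 8.77) at 48 hpi, in a bin 33199 bp downstream of its TSS. Stk35, a kinase gene, had 16 and 1 reads. The others were Ssh2 with 13 and 2 reads, Ceacam9 with 12 and 2, Traf1 with 11 and 1, and Celf2, Zfp710 and Man1a with 11 and 2 each. With the whole 48 hpi library only Stk35, Ssh2 and Ceacam9 still passed the call, and Socs3, with 4.3 reads at 48 hpi and a fold of 3.77, did not. C/EBPα had fewer normalised reads at 48 than at 24 hpi at 7 of these 8 sites, and 37.4% (30.5 to 44.8) of all bins higher at 24 hpi with unequal C/EBPα reads had more at 48 hpi. The values were 23.0 and 3.87 at Socs3 and 31.1 and 14.2 at Stk35. All 7 bins nearest Socs3 together held 56 reads at 24 hpi and 37 at 48 hpi.

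**Figure D2:**
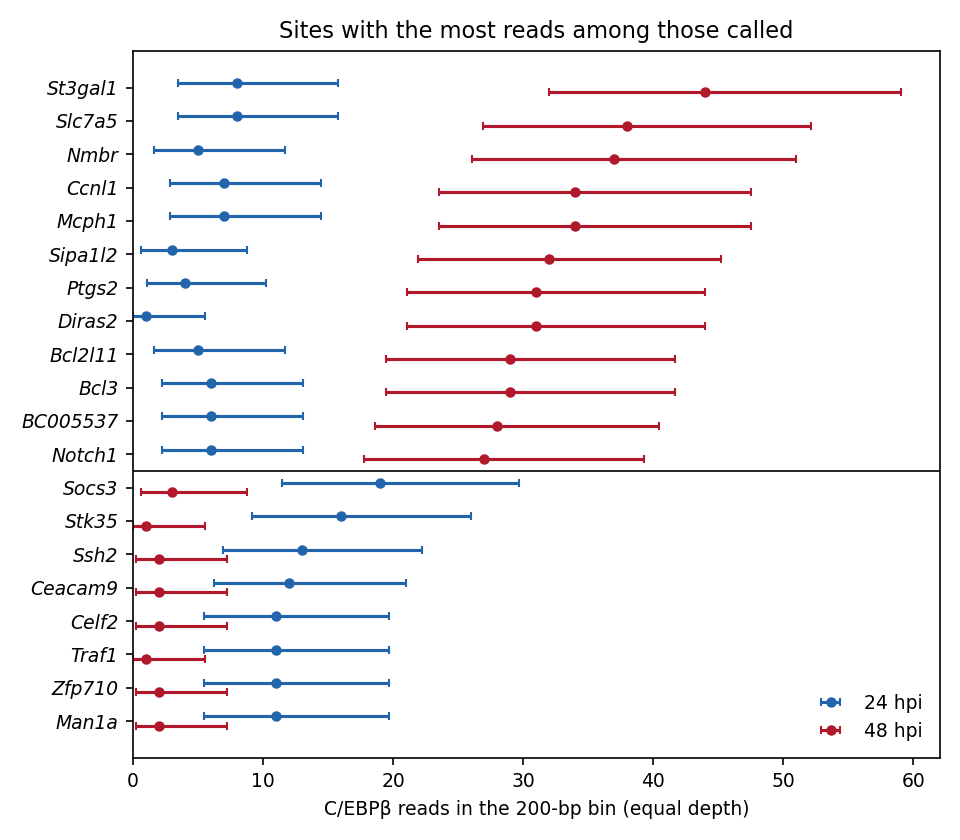
C/EBPβ reads in the 200-bp bin of each site at 24 hpi (blue) and 48 hpi (red) at equal depth, with exact 95% Poisson intervals; the 12 sites above the line were called higher at 48 hpi and the 8 below it higher at 24 hpi. The sites were chosen on these counts, so the gap between the times is part of the choice; BC005537, Notch1 and Mcph1 above the line and all below it but Stk35, Ssh2 and Ceacam9 no longer passed the call with the whole 48 hpi library.

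The 6 strongest sites within 1.5-fold were described for comparison, although the interval of the ratio excluded 1 at Ndel1, Gm5614 and Gm10801. At Kcne3 (a potassium channel subunit gene) 91 and 89 reads were counted, at Cdkl4 (a kinase gene) 76 and 95, and at Ndel1 69 and 104. Kcne3 had 28.8 normalised C/EBPβ reads at 0 hpi and 299 at 24 hpi, whereas Cdkl4 already had 139 at 0 hpi. Bins nearest Gm5614, Gm10801 and Gm10722 held 194 and 132, 99 and 71, and 85 and 81 reads. These 3 bins were high in every library of every factor, with at least 64.4, 54.5 and 47.9 normalised reads in each of the 18, and they hold none of the C/EBP sequences. In all, 840 bins had 6 or more C/EBPβ reads at 0 hpi at the same depth. Without them 1468 bins were called higher at 48 hpi and 231 higher at 24 hpi.

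The C/EBP consensus occurred in 32.5% of the compared bins, against 9.28% of the 11968110 bins of the genome without unknown bases, and 4.15 times as often as in bins of the same GC content. It was found in 27.7% (25.4 to 30.1) of bins higher at 48 hpi, in 33.1% of those that passed neither call and in 20.1% (15.1 to 25.8) of those higher at 24 hpi. Bins with more reads held it more often, so the classes were also compared at similar totals. With 6 to 9 reads the shares were 24.9% for higher at 48 hpi, 23.1% for neither and 19.6% for higher at 24 hpi. With 10 to 19 reads they were 31.0%, 28.6% and 26.3%. The intervals overlapped at each level, which neither shows nor excludes a difference in the consensus between the classes.

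Other sequences were compared in the same way. AP-1, a site of 7 bases, was present in 13.3% (11.6 to 15.1) of bins higher at 48 hpi, in 9.02% of bins that passed neither call, in 5.98% (3.31 to 9.83) of bins higher at 24 hpi and in 3.14% of all bins. Among bins with 20 or more reads it was present in 30 of the 88 called higher at 48 hpi (34.1%, 24.3 to 45.0), against 10.3% (9.43 to 11.2) of those that passed neither call. At 10 to 19 reads the shares were 15.1% (11.8 to 18.96) and 8.46% (7.87 to 9.08), and at 6 to 9 reads 10.6% (8.77 to 12.7) and 8.46% (7.45 to 9.55). The intervals were separate at the upper 2 levels and overlapped at 6 to 9 reads, the level of 978 of the 1477 bins. AP-1 was found at 6 of the 12 strongest sites higher at 48 hpi (St3gal1, Nmbr, Mcph1, Ptgs2, Diras2 and Bcl3) and at none of the 8 higher at 24 hpi. This sequence was singled out after the values of the classes were seen.

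The composite of a C/EBP and a CRE half-site was found in 6.30% (5.12 to 7.66) of bins higher at 48 hpi, 4.55% of those that passed neither call and 0.427% (0.0108 to 2.36) of those higher at 24 hpi, with 0.617% in the genome. At 10 to 19 reads it was present in 9.02% (6.43 to 12.2) of bins higher at 48 hpi and 4.16% (3.74 to 4.62) of those that passed neither call. At 6 to 9 reads the shares were 5.11% (3.82 to 6.68) and 3.42% (2.78 to 4.17), and at 20 or more 6.82% (2.54 to 14.3) and 5.86% (5.22 to 6.56), with overlapping intervals at both levels. EBF1 went the other way, with 8.55% (5.30 to 12.9) of bins higher at 24 hpi, 3.46% (2.58 to 4.52) of those higher at 48 hpi and 3.95% of the rest. The counts behind it are small, 20 of 234 bins. The PU.1 consensus GAGGAAGT was present in 3.59% (2.70 to 4.67) of bins higher at 48 hpi and 5.93% (5.57 to 6.31) of those that passed neither call. At similar totals its share was also lower in bins higher at 48 hpi at each level. The intervals overlapped there, which does not show the shares to be equal. The shares were 3.68% (2.59 to 5.06) and 5.1% (4.32 to 5.98) at 6 to 9 reads, 3.41% (1.88 to 5.66) and 5.71% (5.22 to 6.24) at 10 to 19, and 3.41% (0.709 to 9.64) and 6.78% (6.09 to 7.52) at 20 or more. The E-box of E2A, CAGGTG, lay in 9.98% of the compared bins and 12.0% of the genome.

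**Figure D3:**
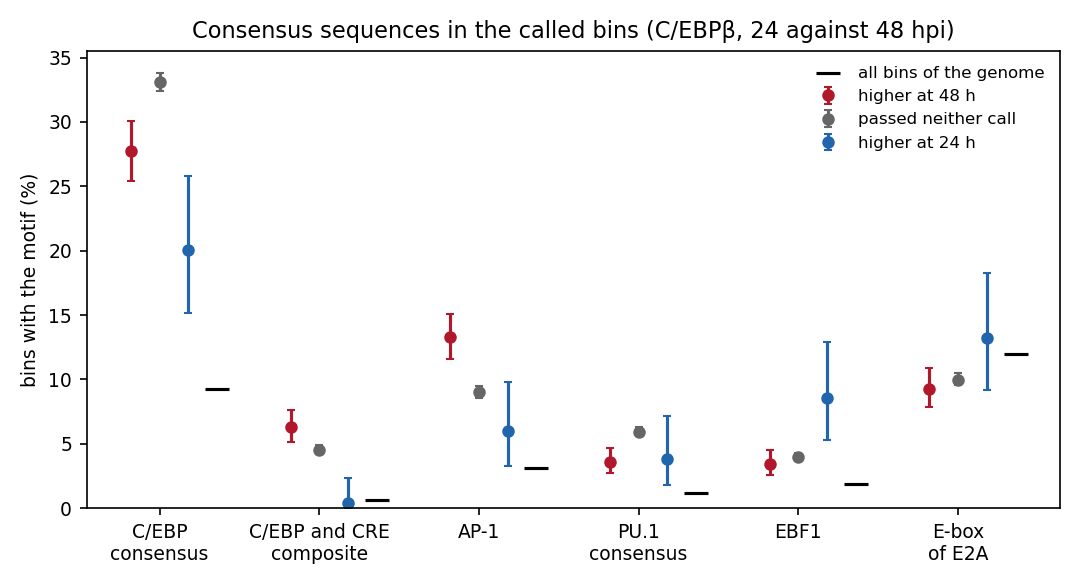
Share of bins (%) that hold each sequence, for bins called higher at 48 hpi (red), bins that passed neither call (grey) and bins higher at 24 hpi (blue), with exact 95% Clopper-Pearson intervals; black bars give all bins of the genome. AP-1 reaches 13.3% in the bins higher at 48 hpi and EBF1 8.55% in those higher at 24 hpi, each above the bins that passed neither call.

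The compared bins were also grouped by sequence, over the same C/EBPβ reads that made the calls, so that the ratios restate the shares above in another form. Bins with AP-1 (1649) had a summed C/EBPβ ratio of 1.80 (1.76 to 1.84), those with the composite (821) 1.68 (1.63 to 1.73), those with the C/EBP consensus (5740) 1.55 (1.53 to 1.57) and those with EBF1 (701) 1.37 (1.33 to 1.42). The 524 bins that held both AP-1 and a C/EBP consensus reached 1.89 (1.82 to 1.96), with 13.2% called higher at 48 hpi. Against the background of 8.36%, 11.9% of AP-1 bins and 7.28% of EBF1 bins were called so. Between 12 and 24 hpi, scaled by library size, the ratio was 1.89 (1.83 to 1.95) in AP-1 bins and 1.68 (1.66 to 1.70) in bins without AP-1. These 2 comparisons share the 24 hpi library. Its reads also took part in choosing the bins and the 12 hpi reads did not, so the second comparison gives no separate evidence. The same ratio was 1.87 (1.81 to 1.93) in bins with PU.1 but without C/EBPα at 24 or 48 hpi, and 1.59 (1.56 to 1.61) in bins with both.

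C/EBPα and PU.1 were measured in other libraries at the same 2 times, and for both the AP-1 bins had the highest and the EBF1 bins the lowest ratio of the sequences plotted below. Summed over the compared bins at equal depth, C/EBPα was lower at 48 than at 24 hpi with a ratio of 0.909 (0.901 to 0.918), and PU.1 was higher with 1.19 (1.18 to 1.20). In AP-1 bins C/EBPα had a ratio of 1.05 (1.02 to 1.09) and PU.1 1.38 (1.34 to 1.43). In EBF1 bins they had 0.756 (0.725 to 0.789) and 1.02 (0.969 to 1.07). For the composite, PU.1 stood at 1.33 (1.27 to 1.40) and C/EBPα at 0.884 (0.847 to 0.923). All these bins were chosen by their C/EBPβ reads at 24 or 48 hpi, so the ratios of C/EBPα and PU.1 are not free of that choice. Of the AP-1 bins 11.9% were called higher at 48 hpi and 0.849% higher at 24 hpi, and of the EBF1 bins 7.28% and 2.85%.

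**Figure D4:**
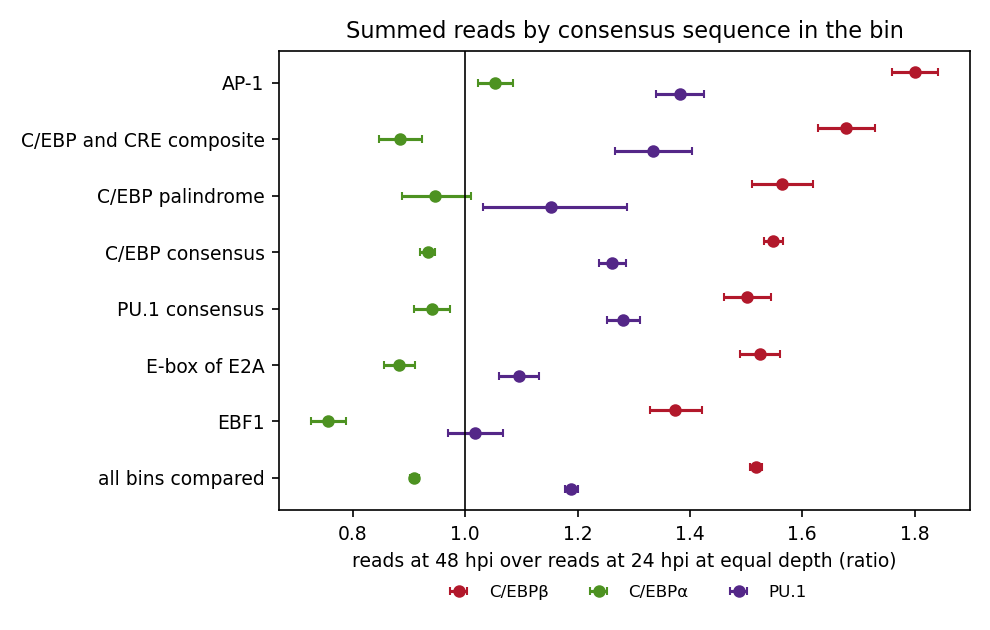
Ratio of summed reads at 48 over 24 hpi (x axis, linear) for C/EBPβ (red), C/EBPα (green) and PU.1 (purple) in the compared bins that hold each sequence, with exact conditional 95% intervals. For all 3 factors AP-1 bins have the highest ratio (1.80, 1.05 and 1.38) and EBF1 bins the lowest (1.37, 0.756 and 1.02). The bins were chosen by their C/EBPβ reads at 24 or 48 hpi, so the 3 factors are not separate evidence.

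Several sets of bins chosen without the C/EBPβ reads also had more of them at 48 hpi. The 1941 bins of the genome with the palindrome TTGCGCAA held 6527 reads at 24 hpi and 9798 at 48 hpi, a ratio of 1.5 (1.45 to 1.55), and 20.8% of them were among the compared bins. Their C/EBPβ level was 4.53 times the mean of all bins at 0 hpi, 7.48 times at 3 hpi, 9.78 times at 12 hpi, 13.2 times at 24 hpi and 20.01 times at 48 hpi. Among other forms of the consensus, TTGCGTAA had a ratio of 1.41 (1.36 to 1.45), TTGCACAA 1.28 (1.26 to 1.29) and TTGCATAA 1.11 (1.09 to 1.13). TTGCTGAA had 0.987 (0.973 to 1.0) and TTGCTAAA 0.967 (0.95 to 0.984). In this order, 8.20%, 1.80%, 0.666%, 0.139% and 0.180% of their bins were among the compared bins. The ratios thus mix compared and other bins in different parts and do not rank the forms. Within the compared bins, which these reads chose, the ratio was 1.56 (1.51 to 1.62) for the palindrome and 1.55 (1.53 to 1.57) for the consensus. The 7388 bins with 6 or more C/EBPα reads at 24 hpi had a ratio of 1.36 (1.35 to 1.38), and 73.2% of them were among the compared bins. TSS bins had 1.38 (1.35 to 1.40). Over all bins of the genome with a sequence, the ratio was 1.20 (1.18 to 1.22) for the composite, 1.15 (1.10 to 1.19) for CRE, 1.09 (1.08 to 1.11) for the PU.1 consensus and 1.09 (1.08 to 1.10) for AP-1. It was 1.08 (1.08 to 1.09) for the C/EBP consensus, 1.04 (1.03 to 1.05) for EBF1, 1.0 (0.995 to 1.01) for RUNX and 0.983 (0.964 to 1.0) for MEF2. The same limit applies here, as 1.11% of the composite bins, 0.517% of the C/EBP consensus bins and 0.439% of the AP-1 bins were compared.

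In the time course, the bins higher at 48 hpi had held few C/EBPβ reads at every earlier time. Their mean was 3.39 normalised reads at 0 hpi, 4.77 at 3 hpi, 6.07 at 12 hpi, 2.92 at 24 hpi and 25.8 at 48 hpi, where all bins of the genome averaged 0.836. The bins higher at 24 hpi had 3.51, 7.31, 6.4, 23.4 and 4.19. The last 2 values of each series chose the bins and are no evidence of their direction. C/EBPα, over all its 8 libraries, was highest at 3 hpi in bins higher at 48 hpi, with 9.16 normalised reads, whereas in bins higher at 24 hpi it had 14.6 both at 60 min and at 3 hpi. From 24 to 48 hpi at equal depth, C/EBPα had a ratio of 1.10 (1.05 to 1.16) in bins higher at 48 hpi, 0.904 (0.896 to 0.913) in those that passed neither call and 0.617 (0.541 to 0.703) in those higher at 24 hpi. PU.1 had 1.23 (1.18 to 1.29), 1.19 (1.18 to 1.20) and 0.888 (0.794 to 0.992). For PU.1 the intervals of the first 2 classes overlapped, and the share of bins with more PU.1 reads at 48 hpi, among bins with unequal reads, was 56.3% (53.3 to 59.4) in bins higher at 48 hpi, 58.4% (57.5 to 59.3) in those that passed neither call and 47.5% (39.6 to 55.5) in those higher at 24 hpi.

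**Figure D5:**
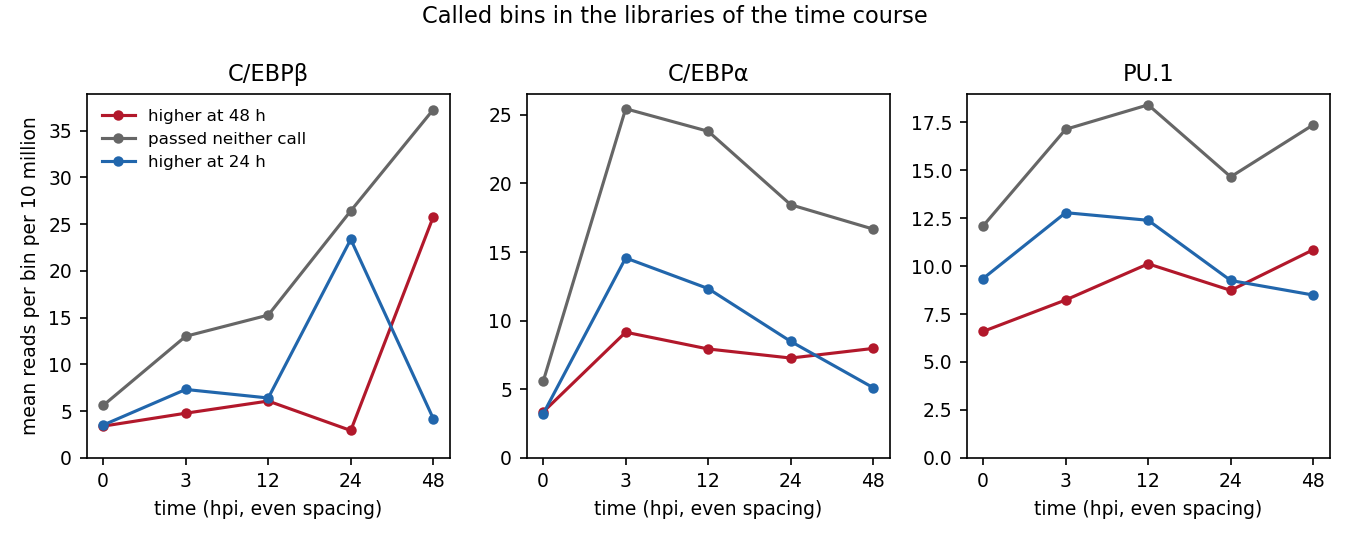
Mean normalised reads per bin (per 10000000 reads, y axis, linear) at 0, 3, 12, 24 and 48 hpi (evenly spaced) for C/EBPβ, C/EBPα and PU.1, each point 1 library, in bins called higher at 48 hpi (red), bins that passed neither call (grey) and bins higher at 24 hpi (blue). The C/EBPβ points at 24 and 48 hpi chose the classes. C/EBPα goes from 14.6 at 3 hpi to 5.11 at 48 hpi in the bins higher at 24 hpi, and also falls in those that passed neither call, from 25.4 to 16.7. It stays between 7.27 and 9.16 from 3 hpi on in the bins higher at 48 hpi.

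The compared bins were also divided by their C/EBPα and PU.1 reads at 24 or 48 hpi (6 or more at the same depth). Both factors were present at 3107 bins, C/EBPα without PU.1 at 3528, PU.1 without C/EBPα at 2186 and neither at 8852. The C/EBPβ ratio was 1.38 (1.36 to 1.40), 1.46 (1.44 to 1.48), 1.60 (1.56 to 1.64) and 1.67 (1.65 to 1.69) in this order. Calls higher at 48 hpi made up 2.41%, 3.51%, 9.38% and 12.1% of them, beside 8.36% over all bins. Bins with both factors held more C/EBPβ reads, 12.4 at 24 hpi on average against 4.91 in those with neither. Within bins of 20 or more reads the ratios were 1.38 (1.36 to 1.40), 1.5 (1.48 to 1.52), 1.51 (1.45 to 1.58) and 1.65 (1.61 to 1.69). Calls higher at 48 hpi were there 0.899%, 1.87%, 2.64% and 2.77%, beside 1.76% of all bins of that level, so the spread of these shares was smaller. Bins that already carried PU.1 at 0 hpi (2552) had a ratio of 1.33 (1.30 to 1.35), against 1.56 (1.55 to 1.57) for the others.

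By position, 48.5% of the compared bins were intergenic, 45.8% lay in introns, 3.54% in untranslated exons and 2.17% in coding exons of the GENCODE annotation (vM1). Within 1000 bp of a TSS lay 12.3% of them, 14.9% (13.1 to 16.8) of those higher at 48 hpi and 5.13% (2.68 to 8.79) of those higher at 24 hpi. The C/EBPβ ratio was 1.62 (1.59 to 1.65) within that distance and 1.5 (1.49 to 1.51) beyond it. These ratios use the same reads that chose the bins and made the calls. Among bins with 20 or more reads they were 1.52 (1.48 to 1.56) and 1.47 (1.45 to 1.48). Calls higher at 48 hpi made up 1.99% (1.03 to 3.45) and 1.73% (1.37 to 2.17) there. Both pairs of intervals overlapped, which neither shows nor excludes a difference by distance. The median distance to a TSS was 14989 bp for bins higher at 48 hpi and 18776.5 bp for bins higher at 24 hpi.

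Genes were assigned by the nearest TSS, and 6014 of 21275 protein-coding genes had a compared bin. At least 1 bin higher at 48 hpi was found for 1271 genes and at least 1 higher at 24 hpi for 223. Lists of genes of both lineages were described by their bins, beside the median log2 ratio of 0.68 and the 8.36% called higher at 48 hpi over all bins. Medians of the 8 lists lay between 0.42 and 0.81 and shares called higher at 48 hpi between 5.00% and 8.11%, so no list had a larger share of such calls than all bins. The summed ratio was 1.52 over all bins, and by list 1.66 (1.54 to 1.78) for myeloid transcription factors, 1.55 (1.41 to 1.69) for oxidase, lipid and iron handling, and 1.54 (1.44 to 1.64) for receptors and adhesion. It was 1.48 (1.31 to 1.66) for B-lineage genes, 1.46 (1.33 to 1.6) for cytokines and chemokines, 1.42 (1.29 to 1.57) for lysosomes, proteases and granules, 1.39 (1.2 to 1.6) for AP-1 genes and 1.38 (1.3 to 1.47) for feedback and signalling. Shares called higher at 24 hpi, beside 1.32% over all bins, were 4.05% (0.844 to 11.4) for B-lineage genes, 3.13% (0.649 to 8.86) for oxidase, lipid and iron handling, 2.73% (1.01 to 5.84) for feedback and signalling and 2.11% (0.256 to 7.4) for cytokines and chemokines. In the other 4 lists they lay between 0 and 1.33%, and the interval of every list included the share over all bins. Below, each gene is represented by its strongest bin, and the 4 genes of each list whose strongest bins held the most reads are given, which need not be the genes with the most reads over all their bins. At 29 of these 32 sites C/EBPβ reads were more numerous at 48 hpi, which lies near the 88.5% of all bins with 40 to 79 reads. None passed the 4-fold call, which few bins with many reads did.

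The myeloid transcription factors had 153 bins at 16 of 19 annotated genes. Of these, 11 bins (7.19%) were higher at 48 hpi and 1 (0.654%) higher at 24 hpi, beside 8.36% and 1.32% over all bins. Sfpi1, the gene of PU.1, had an intronic site 1564 bp downstream of its TSS with 41 and 83 reads, a ratio of 2.02 (1.38 to 3.02). The C/EBPβ level of that site had been 28.8 normalised reads at 0 hpi. Of the 10 bins of Sfpi1, 1 was called higher at 48 hpi and 1 higher at 24 hpi, the latter the only such bin of the list. Cebpb, which encodes C/EBPβ itself, had 41 and 80 reads at a site 71286 bp downstream, a ratio of 1.95 (1.32 to 2.92). Klf4, a zinc finger factor of monocytes, had 54 and 62 reads, and Runx1, a regulator of blood stem cells, 39 and 47, within counting error of equality. Chosen after their values were seen, Atf3, a stress-induced repressor, held 112 and 221 reads over all its bins, and Mitf, a regulator of lysosomal genes, 32 and 71.

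AP-1 genes had 41 bins at 8 of 10 genes, 3 of them higher at 48 hpi. Junb had 7 and 28 reads 1084 bp upstream of its TSS, a ratio of 4.0 (1.71 to 10.8), just under the call because of the added read. Fosl2 had 27 and 54 reads in an intron, a ratio of 2.00 (1.24 to 3.30). Jun had 31 and 41 reads and Fos 28 and 20, both within counting error.

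Macrophage receptors and adhesion molecules had 225 bins at 42 of 45 genes, with 12 bins higher at 48 hpi and 3 higher at 24 hpi. Il6ra, the IL-6 receptor gene, had 19 and 69 reads 217 bp upstream of its TSS, the highest ratio among the 32 sites after Junb and Hmox1, at 3.63 (2.16 to 6.39). Tlr2, a receptor of bacterial lipopeptides, had 68 and 56, Ifngr2 (interferon-γ receptor) 33 and 41, and Cd33, a sialic acid-binding lectin, 30 and 34, none apart from equality. Also chosen after its values were seen, Tlr4, the lipopolysaccharide receptor, had 15 bins with 80 and 150 reads in sum, of which 3 were called higher at 48 hpi. Csf1r, the receptor of CSF-1 and likewise chosen, had 4 bins with 21 and 34 reads.

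Genes of lysosomes, proteases and granules had 80 bins at 23 of 33 genes, 4 of them higher at 48 hpi. The sites of Mmp12, the macrophage elastase, and Lyz2, a lysozyme of macrophages, had 20 and 40 and 17 and 36 reads, with ratios of 2.00 (1.14 to 3.61) and 2.12 (1.16 to 4.02). Lyz1 had 35 and 36 reads and Mmp8, a collagenase, 22 and 34. Among cytokines and chemokines, 95 bins lay at 16 of 27 genes, with 5 higher at 48 hpi and 2 higher at 24 hpi. Ccl2, a monocyte chemoattractant, had 36 and 71 reads, a ratio of 1.97 (1.30 to 3.03), and Il1rn, the antagonist of IL-1, 17 and 32, a ratio of 1.88 (1.01 to 3.61). Il1b had 44 and 51 and Il6 36 and 44, and neither differed from equality beyond counting error.

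The list of oxidase, lipid and iron handling had 96 bins at 24 of 30 genes, 7 higher at 48 hpi and 3 higher at 24 hpi. Hmox1, which encodes heme oxygenase, had 11 and 42 reads over its TSS, a ratio of 3.82 (1.93 to 8.22), and 31.2, 14.1 and 10.6 normalised reads at 0, 3 and 12 hpi. Plin2, a lipid droplet gene, had 34 and 58 reads, a ratio of 1.71 (1.10 to 2.69), and Fth1, the ferritin heavy chain, 26 and 40. A second site of Ptgs2, 64847 bp downstream of the TSS, had 42 and 49 reads. The site at 45047 bp described above was chosen for its ratio, so the 2 sites are not compared.

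Feedback and signalling genes had 220 bins at 28 of 31 genes, with 13 bins higher at 48 hpi and 6 higher at 24 hpi. Zfp36l2 had 38 and 50 reads, Ehd1 36 and 46, Dusp5 26 and 42, and Tnfaip3, an inhibitor of NF-κB signalling, 33 and 28, all within counting error of equality. Of the B-lineage genes, 24 of 38 had a compared bin, 74 in all, with 6 bins higher at 48 hpi and 3 higher at 24 hpi. Myb, a regulator of progenitors, had 35 and 65 reads in an intron, a ratio of 1.86 (1.21 to 2.89), and had 52.8 normalised reads at 0 hpi. Pax5, which maintains B cell identity, had 12 and 23 reads over the palindrome, Ikzf1 23 and 36, and Cxcr4 17 and 20, each within counting error of equality.

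Chosen after the values were seen, the genes with the most bins higher at 48 hpi were Gm826 and Sfi1 with 5 each, and 2010109K11Rik, Mettl15, Myc, Rbpj, Rnd3, Srgn and Thbs1 with 4 each. Thbs1, which encodes the matrix protein thrombospondin, had 136 and 290 reads over 25 bins, Srgn, a granule proteoglycan gene, 99 and 227 over 15, and Myc, a regulator of growth, 135 and 267 over 19. The 230 bins of Sfi1, far more than those of any other gene, held 1835 and 2053 reads. Its 5 bins higher at 48 hpi are 2.17% of them, below the 8.36% over all bins, and 2 further bins were higher at 24 hpi.

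The same rule was applied to 3 related pairs of libraries, each at its own depth, so that their counts are given side by side only. C/EBPβ at 12 and 24 hpi (2824293 reads each) gave 9806 bins, of which 10.7% were higher at the later and 1.17% higher at the earlier time, with a median log2 ratio of 0.81. This pair shares the 24 hpi library with the comparison above. C/EBPα at 24 and 48 hpi (7406493 reads) gave 55327 bins with 5.58% and 8.53% and a median of -0.35. PU.1 at 24 and 48 hpi (10204581 reads) gave 192912 bins with 4.04% and 5.51% and a median of 0. No test of the differences between pairs was possible with 1 library each.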

How the data were processed

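ChIP-seq reads of 3 factors (C/EBPβ, and for comparison C/EBPα and PU.1) in C10 cells were analysed. By the study's methods they were mapped to mm9, allowing no mismatch, by ELAND or Bowtie, and only uniquely mapped reads without identical copies were kept. Some deposited C/EBPα files still held identical copies, 2.52% of reads at 3 hpi, which were removed here. For both C/EBPβ libraries the submitters' processing notes name Bowtie and HOMER, with no version. They deposited 1 line per read, so a count of lines is a raw read count with no normalization and no control library. C/EBPβ reads were 40 bases long, and no read shared position and strand with another.

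Reads of chromosomes 1 to 19 were moved 75 bp inward from the 5′ end, and the 48 hpi library was thinned with a fixed seed. Counting used Python 3.11.15, numpy 2.4.6 and scipy 1.17.1, and was tested on simulated data. Genes were GENCODE vM1 and sequence NCBIM37, which share the build of the reads; coordinates count from 1. Expected shares came from all bins in GC classes of 2%. Motif matches are descriptions of letters, on both strands, and overlap between motifs was allowed.

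Named sites were the 12 strongest higher at 48 hpi, the 8 strongest higher at 24 hpi, the 6 strongest within 1.5-fold, and the strongest site of each of the 4 genes of each list whose single strongest bin held the most reads. The members, gene lists and motifs were chosen with earlier results of these data known. Alternatives varied the threshold, thinning, seed, shift, bins, pseudocount, fold, scaling and duplicates.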

Additional observations from a re-analysis of the deposited data

How the results depend on the processing

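Of 77 values recomputed under other settings, 11 could not move by construction (the C/EBPβ libraries hold no duplicates, and a pseudocount, fold or scaling does not change which bins are compared). Of the other 66, 46 stayed within 1.5-fold of a reported count or within the interval of a reported median or share. With 10 or more reads in place of 6 there were 7574 bins, of which 425 were higher at 48 hpi and 15 higher at 24 hpi, and the C/EBP consensus was in 35.1% and 26.7% of them and AP-1 in 19.1% of those higher at 48 hpi. Without thinning, 746 bins were higher at 48 hpi, with the consensus in 31.8% and AP-1 in 17.7%, and the median log2 ratio was 0.55. Bins of 400 bp gave 652 higher at 24 hpi, a median of 0.58, and 30.3% with the consensus and 15.5% with AP-1 among those higher at 48 hpi, in windows longer than the main ones. A pseudocount of 0.5 gave 2188 bins higher at 48 hpi, 403 higher at 24 hpi and a median of 0.71. A call of 2-fold gave 6434 and 1124 bins, with the consensus in 30.8% of those higher at 48 hpi. Scaling to background bins gave a median of 0.73. Leaving out bins with C/EBPβ signal at 0 hpi, and the whole set of AP-1 values, were added after seeing the data.

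No paired analysis was possible because each factor and time point had 1 library. Depth limits the calls: with 0.246 reads per bin on average, a bin at 6 reads has an interval wide enough that a 4-fold call at low counts often rests on 0 or 1 read at the other time, and bins under 6 reads were not compared.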

Other observations

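Chromosome 12 held the highest share of bins called higher at 48 hpi, 77 of 594 (13.0%, 10.4 to 15.9), where all chromosomes together had 8.36%. Its summed C/EBPβ ratio was 1.69 (1.62 to 1.76). It also had the fewest reads per bin of the 19 chromosomes in both libraries, 0.187 at 24 hpi and 0.194 at 48 hpi, and its background ratio, over bins with fewer than 3 reads in each library, was the highest of the 19, which began at 0.944. The part of the lower read density of chromosome 12 in its share of calls was not tested.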
